A study of Homo sapiens with 2 samples.

Results

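A total of 3996 probe sets of the array carried no gene symbol in the platform annotation and had identifiers (IDs) that ran in close series. They were found by sorting the 5171 probe sets without a symbol by ID and keeping every run of 8 or more with steps of at most 20 between IDs. The table held 22011 probe sets in all, so the runs made up 77.3% of the probe sets without a symbol. There were 88 runs, with 8 to 232 members and a median of 28. The rule used only IDs and the absence of a symbol and no measured value, but it was set with earlier results of these data known.

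The samples were of J82, a long-established line from a human bladder cancer, grown here in DMEM with fetal bovine serum and given no treatment. The cells were stained with the DNA dye Hoechst and sorted by flow cytometry into a side population (SP), which keeps little dye, and a non-side population (NSP), which makes up the rest. Total RNA of each population was hybridised to 1 human exon array, so both groups come from the same untreated line and were set apart by the sort gate. Each population also has its own array, so a difference between arrays cannot be told apart from one between populations. With 1 array for each population there was no replicate, so the values below come with neither a measured error nor a p-value. In such bulk RNA, a smaller number of cells that hold a transcript and less of it per cell cannot be told apart.

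A gene is transcribed as a precursor RNA that holds both exons and introns, and splicing removes the introns and joins the exons into the stable messenger RNA. Probes placed in exons therefore read mature and precursor RNA together, whereas probes placed in introns read precursor RNA and other unspliced or retained sequence, which is usually far scarcer. Exon arrays also carry control probe sets in exons and introns of constitutively expressed genes. The sources used here do not say whether the members are of that kind, and they give no exon, intron or position for any member, so no exon or intron is assigned below. The probe sequences and genome positions of the members were not used here.

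The deposited values are log2 signals, with a median of 7.43 on the SP array and 7.44 on the NSP array, and differences are given as SP minus NSP on that scale. The epithelial keratin gene KRT8 reached 13.18 in SP and 12.77 in NSP, and 5 of the 14 measured urothelial markers were at or above 7.44, the midpoint of all the values, in 1 population or both, as were all 4 mesenchymal markers. EPCAM and CDH1, 2 epithelial adhesion genes, were dim on both arrays. The leukocyte gene PTPRC lay at 3.74 and 3.80, and 2 of 6 immune, 0 of 4 endothelial and 0 of 1 blood cell markers reached that level. The dye and drug transporter genes had log2 levels of 9.87 in SP and 9.17 in NSP (ABCB1), 10.50 and 10.12 (ABCC1) and 6.14 and 5.69 (ABCG2).

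The members spanned almost the whole range of the array, from 2.15 to 13.99 in SP and from 2.11 to 13.93 in NSP. A member was called bright when the mean of its log2 signals on the 2 arrays was 9 or more, and dim otherwise. By this threshold 1273 members (31.9%) were bright and 2723 were dim, against 19.2% bright among all other probe sets. The bright members had a median level of 10.94 in SP and 10.91 in NSP, and the dim members one of 6.21 and 6.37. Of the 88 runs, 86 held at least 1 bright and 1 dim member. The 44 members just inside the threshold, with means from 9 to 9.1, had a median difference of -0.14 (range -0.90 to 1.03). The 33 just outside it, from 8.9, had one of -0.0019 (range -1.20 to 1.27).

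Bright and dim members each came in stretches along the ID order, and the level went with the size of the ID steps. Of 3908 pairs of adjacent members, 3033 (77.6%) lay 2 IDs apart and 620 lay 1 ID apart. Both members were bright in 55.0% of the pairs 1 apart, but in 9.66% of the pairs 2 apart, where both were dim in 66.4%. Among the 880 members with a step of 1 on at least 1 side, 69.8% were bright, against 18.3% of the 2845 members with steps of 2 alone. Runs held a median of 3.5 separate stretches of bright members, and the longest such stretch had 25 members. Many stretches were short, as the 1273 bright members made up 528 of them. In the run with the most, 39 bright members made up 28 stretches, none longer than 4. The longest stretch of a run had a median length of 6. Bright members were also more frequent early in the ID order. With each run cut into 3 equal sections by rank, they made up 51.2% of the first, 25.4% of the middle and 19.1% of the last section. Since a higher ID need not mean a position further along a transcript, this order is an order of IDs only.

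Differences of 2-fold or more were several times as frequent in the runs as on the array as a whole, and nearly all of them were in dim members. In SP, 128 members (3.20%) were at least 2-fold higher, where 0.922% of all probe sets were, and 224 (5.61%) were at least 2-fold lower, where 1.18% of all probe sets were. Either way this was 352 members (8.81%), against 2.1% of all probe sets. Among bright members 8 of 1273 (0.628%) passed 2-fold, against 0.931% of all bright probe sets. Of those 8, 7 were higher in SP, where 0.867% of all bright probe sets were, and 1 was lower, where 0.0635% were. Among dim members 344 of 2723 (12.6%) passed it, against 2.42% of all dim probe sets. They were 121 higher ones, where 0.937% of all dim probe sets were higher, and 223 lower ones, where 1.48% were lower. The members are themselves most of the 462 probe sets past 2-fold, and outside the runs only 0.508% of dim probe sets passed it. A single run of 151 members held 57 of the 128 higher ones, and without it 71 members were at least 2-fold higher and 4 bright members passed 2-fold. When the higher of the 2 values had to reach the median of all values, 2138 members remained. Of these, 52 (2.43%) were at least 2-fold higher, where 0.959% of all probe sets reaching that level were, and 63 (2.95%) were at least 2-fold lower, where 0.724% were.

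The excess in dim members remained when probe sets of the same level were compared. Between levels of 5 and 6, 18.3% of 382 members differed by at least 2-fold, against 1.68% of 179 probe sets without a symbol outside the runs and 0.430% of 1629 with 1 symbol. Between 8 and 9 the shares were 6.75%, 1.23% and 0.457%. At 10 to 11 the order turned, with 0.327% of 306 members and 1.68% of 773 probe sets with 1 symbol, and from 11 upward none of 614 members passed 2-fold. The SD of the difference over members was 0.809 between 5 and 6 and 0.157 from 11 upward. For probe sets with 1 symbol it was 0.237 and 0.245 at those levels. How many probes each probe set sums is not given in the sources used here, and its part in these spreads was not tested.

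**Figure D1:**
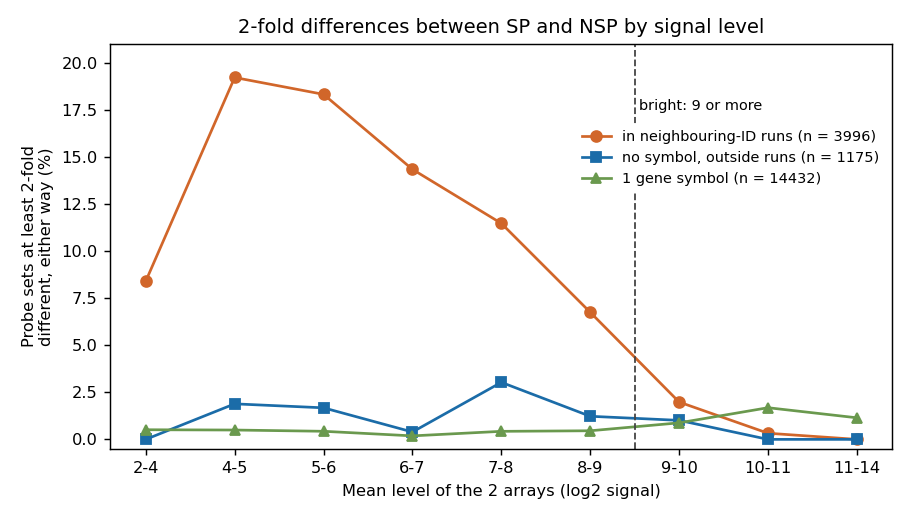
Share of probe sets (%) that differed by at least 2-fold between the SP and NSP arrays, either way, by the mean log2 level of the 2 arrays, for members of neighbouring-ID runs (circles), probe sets without a symbol outside runs (squares) and probe sets with 1 gene symbol (triangles). Members stand at 18.3% between levels of 5 and 6, where those with 1 symbol stand at 0.430%, and the lines meet right of the dashed line at 9.

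As a whole, neither bright nor dim members leaned far to one side. The median difference was -0.0058 over bright members, with 628 higher and 645 lower in SP, and -0.065 over dim members, with 1214 higher and 1508 lower. Over all probe sets the medians were -0.057 for bright and 0.0087 for dim ones. The sign of the bright median rests on small choices, being 0.0053 after centring each array on its median and 0.039 after removal of a trend on level. Without the run of 151 members the dim median was -0.094. The middle 50% of bright members lay between -0.12 and 0.12, and that of dim members between -0.42 and 0.27.

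In most runs whose dim members leaned to one side, the bright members of the same run lay closer to 0. A comparison was possible in the 75 runs with at least 3 bright and 3 dim members. Over these runs the median difference of bright members ranged from -0.36 to 0.36, with an SD of 0.144, and that of dim members from -1.28 to 1.11, with an SD of 0.343. The bright median was above the dim median in 39 runs and below it in 36, which is 52.0% above. Among runs of 20 or more members it was above in 34 of 52 (65.4%). In 17 runs the dim members had a median of -0.2 or less, and there the bright median was closer to 0 in 16, at a median of -0.090. In 13 runs the dim members had a median of 0.2 or more, and there the bright median was closer to 0 in 12, at a median of 0.070. These runs were picked by their dim members, so some return toward 0 is built into the counts. In the 45 runs whose dim median lay within 0.2 of 0, the bright median was closer to 0 in 21. Bright and dim medians had the same sign in 46 runs, 33 lower and 13 higher in SP, and opposite signs in 29. Across the 75 runs the bright and dim medians had a Pearson r of 0.403 and a Spearman rho of 0.246, with both read from the same 2 arrays.

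**Figure D2:**
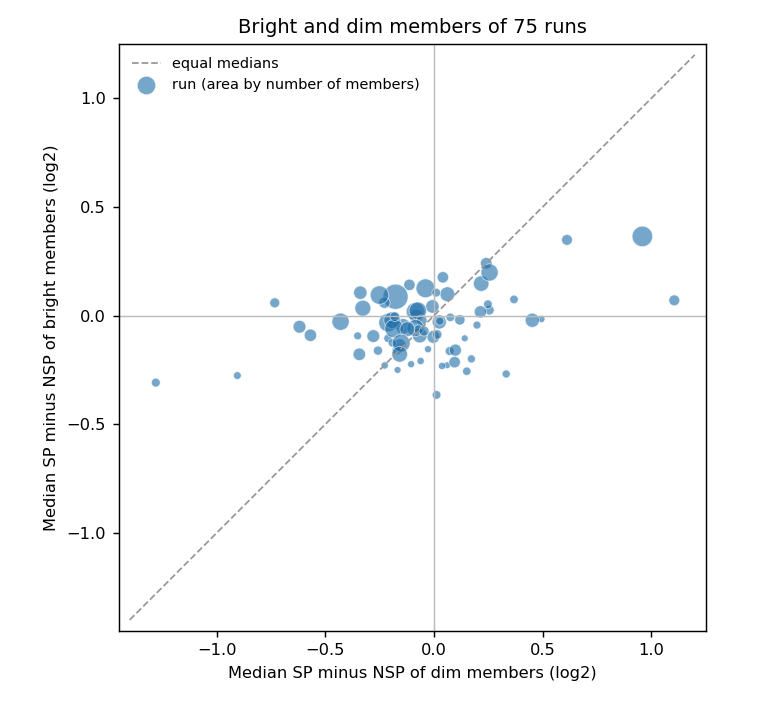
Median difference between SP and NSP (log2) of the bright members (vertical axis) against that of the dim members (horizontal axis), 1 circle for each of 75 runs with at least 3 of each kind, with an area that grows with the number of members. The circles spread from -1.28 to 1.11 along the dim axis but only from -0.36 to 0.36 along the bright axis.

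The run with the highest median difference was also the one with the most 2-fold differences. It held 151 members with IDs from 3556022 to 3556322, had a median level of 7.92 in SP and 6.96 in NSP, and had a median difference of 0.84 (1.79-fold). The next annotated ID, 1 above its end, belonged to SUPT16H, a subunit of the histone chaperone complex FACT, which had 10.15 in SP and 10.29 in NSP. No annotated ID lay within 100 below it. Its 112 dim members had medians of 7.20 in SP and 6.01 in NSP, with 108 higher in SP and a median difference of 0.96. Its 39 bright members had medians of 10.10 and 9.69, with 33 higher and a median difference of 0.36. The difference was largest at intermediate levels: the median was 0.66 for the 22 members under a level of 5, 1.19 for the 42 from 5 to 7, and 0.94 for the 48 from 7 to 9.

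Along the ID order of this run, the section medians were ordered for dim members but not for bright ones. The bright members had a median difference of 0.18 in the first section, 0.66 in the middle and 0.36 in the last, with 7, 7 and 25 members. The dim members had one of 1.37 in the first section, where all 43 were higher in SP and 29 passed 2-fold, and it was 0.92 in the middle and 0.67 in the last section. The largest single difference was in the member with ID 3556026, at 6.70 in SP and 3.40 in NSP. The brightest member, ID 3556280, had 13.15 in SP and 13.05 in NSP, a difference of 0.10. The most strongly lower member had a difference of -0.64, with 6.47 in SP and 7.11 in NSP.

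**Figure D3:**
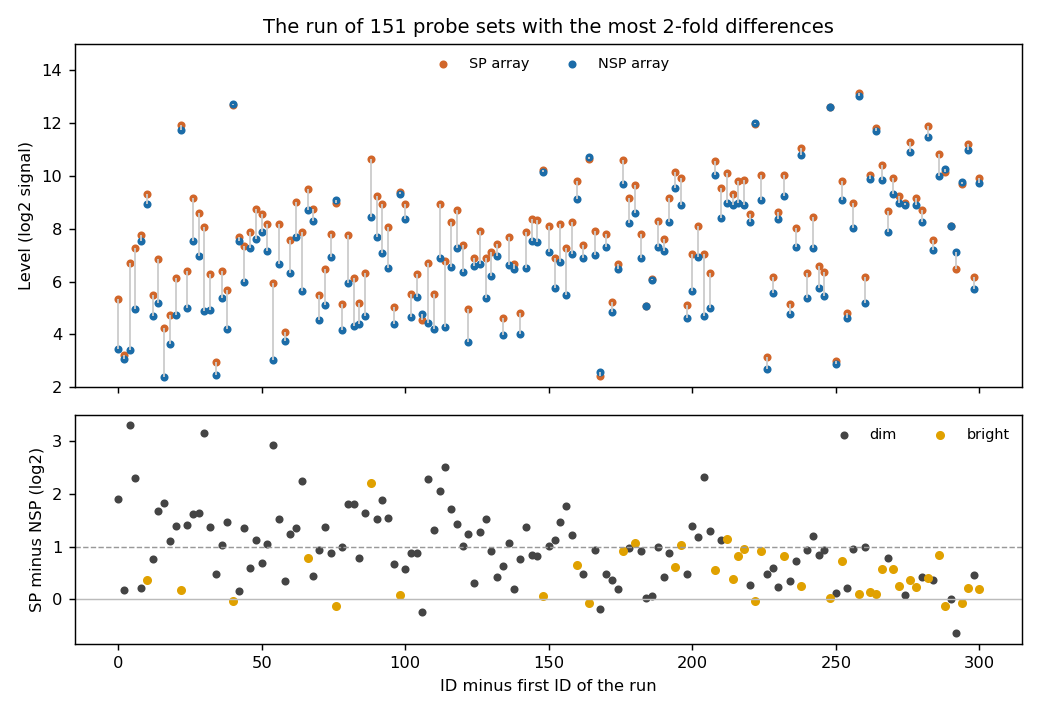
Top, log2 levels of the 151 members of the run on the SP and NSP arrays against the ID counted from the first member, with a line joining the values of a member. Bottom, SP minus NSP (log2), with bright members in yellow, dim members in black and a dashed line at 2-fold; the dim members lie highest on the left, with a median of 1.37 in the first section and 0.67 in the last.

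The lowest median difference was in a short run of 20 members, IDs 3474513 to 3474561, in which every member was lower in SP. The annotated ID 11 below it belonged to SRSF9, which encodes a splicing factor of the SR family and was itself lower in SP (11.23 against 11.86, a difference of -0.63), though with exactly the values of 1 bright member of the run on both arrays. The 11 dim members had medians of 6.79 in SP and 8.17 in NSP and a median difference of -1.28, and 9 of them were at least 2-fold lower. The 9 bright members had medians of 9.77 and 10.08 and a median difference of -0.31, with none past 2-fold. The ranges of the 2 kinds did not overlap: the dim members ran from -2.50 to -0.84 and the bright ones from -0.74 to -0.25. The annotated probe set of POP5, a subunit of RNase P, 58 IDs above the run, was also lower in SP, at 7.34 against 7.90.

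In the run from 2968244 to 2968460 the lower values of dim members were gathered toward its end. It held 104 members and began 12 IDs above SNX3, an endosomal sorting nexin gene with 8.35 in SP and 8.64 in NSP. Its 88 dim members had medians of 5.00 in SP and 5.65 in NSP and a median difference of -0.43, and 72 were lower. Its 16 bright members had medians of 10.45 and 10.56 and a median difference of -0.028, with 8 lower and 8 higher. Their median difference was -0.22 in the first section (11 members), 0.079 in the middle (3) and 0.13 in the last (2). Among the dim members the median difference was -0.13 in the first section, -0.43 in the middle and -1.15 in the last, which held 18 of the 26 members at least 2-fold lower. The lowest was the member with ID 2968448, at 5.60 in SP and 8.40 in NSP, and the 2 bright members of the last section had differences of 0.065 and 0.19.

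The run from 3096439 to 3096544 had 53 members and began 11 IDs above FNTA, the alpha subunit gene of protein farnesyltransferase, which had 9.45 in SP and 9.42 in NSP. Its 38 dim members had medians of 6.13 in SP and 6.80 in NSP and a median difference of -0.62, with 32 lower. Its 15 bright members had medians of 9.95 and 10.07 and a median difference of -0.051. All 13 members past 2-fold were dim and lower in SP. The annotated ID directly above the run belonged to the kinase gene POMK, at 10.56 in SP and 10.70 in NSP.

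The other 2 of the 5 lowest runs lay close together in ID order, between a probe set annotated with several genes and the nucleoporin-like gene NUP210L. The first, of 13 members (2436403 to 2436418), was mostly bright. Its median level was a little higher in SP (9.78 against 9.73), yet 11 of its members were lower and its median difference was -0.29. Its 10 bright members had a median difference of -0.28 and its 3 dim ones one of -0.90. The second, of 8 members (2436446 to 2436460), had a median difference of -0.45, the lowest after that of the run above SRSF9. Its 6 dim members had one of -0.77, while its 2 bright members were each higher in SP by 0.11.

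Among the runs with higher values in SP, dim members leaned further than bright ones in some but not in all. The run from 3306517 to 3306595 held 35 members and began 1 ID above SMNDC1, a gene of spliceosome assembly with 9.68 in SP and 9.34 in NSP, a difference of 0.34. Its 6 bright members, all in the first section, were all higher in SP and differed by a median of 0.35, close to the value of SMNDC1. Its 29 dim members had medians of 5.89 in SP and 5.34 in NSP and a median difference of 0.61, and they turned along the run: 2 of 6 were higher in the first section (median -0.17) and 12 of 12 in the last (median 0.72). In the run of 42 members from 3362733 to 3362793, bright and dim medians were both 0.24. All 24 bright members were higher there (medians of 11.53 in SP and 11.22 in NSP), as were 13 of the 18 dim ones, and a probe set with several genes 14 IDs below it had a difference of 0.29. The run of 104 members from 3749516 to 3749754 had a bright median of 0.20, with 26 of 29 higher, and a dim median of 0.26, with 51 of 75 higher and medians of 7.72 in SP and 7.31 in NSP. The run of 14 members from 2949091 to 2949117, which ended 1 ID below the lymphotoxin gene LTB (7.76 in SP, 7.49 in NSP), had 12 dim members with a median difference of 0.36 and 2 bright ones with 0.18.

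The widest gap between bright and dim members was in the run of 35 members from 3212298 to 3212368. Its 23 bright members had medians of 11.74 in SP and 11.67 in NSP and a median difference of 0.070, and its 12 dim members had medians of 8.05 against 6.79 and a median difference of 1.11. Level and place in the run went together here. Of the dim members, 10 lay in the last section, where all 10 were higher, from 0.15 to 1.75. The 2 bright members of that section were also higher, by 0.82 and 1.18, whereas the 21 bright members of the first and middle sections ran from -0.17 to 0.60. A probe set annotated with several genes, 4 IDs below the run, had 11.35 in SP and 11.31 in NSP.

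**Figure D4:**
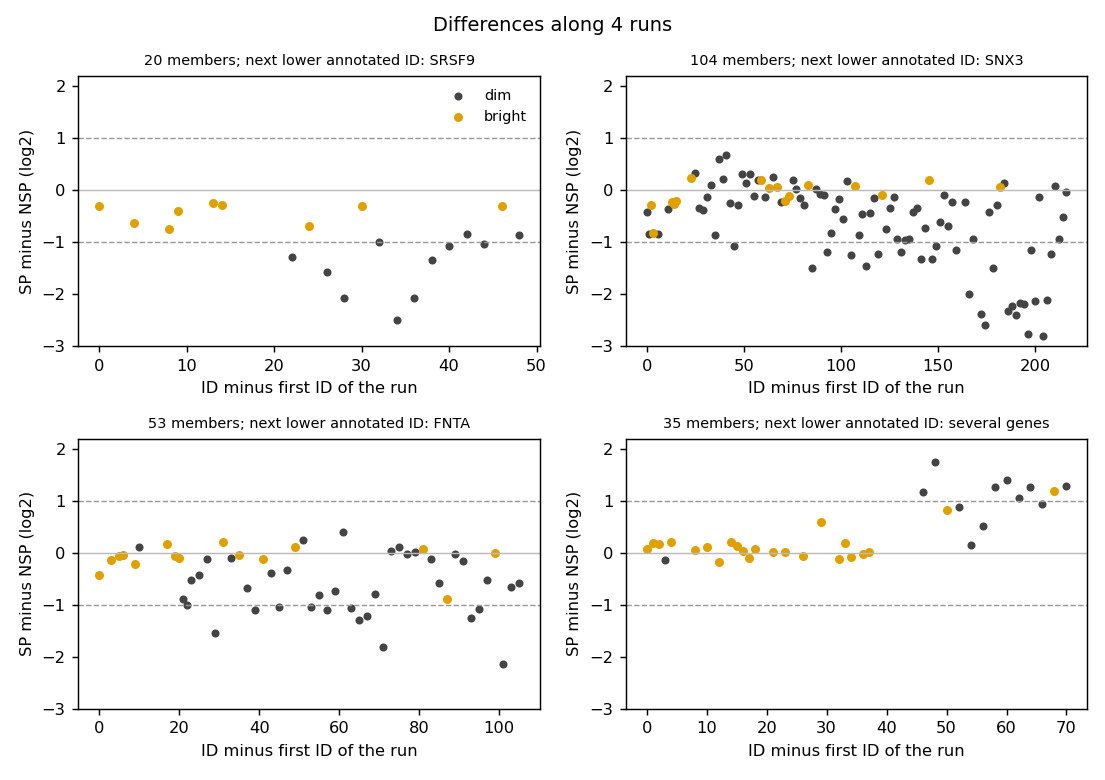
SP minus NSP (log2) of each member against its ID counted from the first member, for the runs next above SRSF9 (20 members), SNX3 (104), FNTA (53) and a probe set with several genes (35), with bright members in yellow, dim members in black and dashed lines at 2-fold either way. In the run of 35 all 12 members of the last section lie above 0, and in the run of 104 the dim members of the last section have a median of -1.15.

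In a further pair of runs with a wide gap, the bright and dim medians had opposite signs, but level and place in the run went together in both. The run of 28 members from 3319295 to 3319347 ended 5 IDs below TUB, the tubby gene, which had 7.79 in SP and 8.15 in NSP. Its 13 bright members had medians of 11.42 in SP and 11.28 in NSP and a median difference of 0.059. Its 15 dim members had medians of 5.92 in SP and 6.55 in NSP and a median difference of -0.73, and 14 were lower. All 9 members of its first section were bright and all 10 of its last were dim. Of the 4 bright members in its middle section 3 were higher, and the other had a difference of -0.64. In the run of 15 members from 2325197 to 2325224 all 7 bright members were lower in SP (median -0.27). Of its 8 dim members 6 were higher, with a median of 0.33. All 5 members of the first section of that run were bright and all 5 of the last were dim. The run of 15 began 5 IDs above RPL11, a gene for a protein of the large ribosomal subunit, which was lower in SP, at 9.97 against 10.51.

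The other longest runs had median differences between -0.12 and 0.04. The longest of all, with 232 members from 3275139 to 3275610, had a median difference of 0.087 over 55 bright members, of which 41 were higher, and of -0.18 over 177 dim members, of which 111 were lower. Its 17 members past 2-fold were all dim and lower. The run of 122 members above RHOA, the gene of a small GTPase that controls the actin cytoskeleton, ran from 2674245 to 2674498. RHOA itself had 11.54 in SP and 11.56 in NSP, and the 35 bright members had a median difference of 0.019. Its dim members had a median difference of 0.28 in the first section, with 21 of 28 higher, 0.039 in the middle and -0.97 in the last, with 29 of 31 lower. This change between the ends, of -1.25, was the widest of the 39 runs with at least 5 dim members in each end section.

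The run of 122 members above SART3, whose product recycles spliceosomal particles, ran from 3470254 to 3470484. It had a bright median of 0.095, with 18 of 24 higher, and a dim median of -0.25, with 70 of 98 lower. The run of 123 members above ANAPC5, a gene for a subunit of the anaphase-promoting complex, ran from 3474936 to 3475186 with a bright median of -0.060 and a dim median of -0.18. It held the lowest difference of any member, -3.21, with levels of 3.36 (SP) and 6.58 (NSP). Members of the run of 127 above KAT7, a histone acetyltransferase gene with 9.64 in SP and 9.47 in NSP, had a bright median of 0.13, with 21 of 26 higher. Its dim members ran from -1.66 to 1.93 around a median of -0.039, and that run went from 3725790 to 3726036.

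In most of the runs that could be compared, the difference of the bright members lay within 0.1 of that of the annotated probe set next below the run in ID order. For 66 of the 88 runs such a probe set lay within 20 IDs below the first member, and in 87 runs no annotated ID fell between members. Those neighbours were bright themselves in 50 of the 66 cases, with a median level of 10.2 against 7.46 for all probe sets with a symbol. In the 64 of these runs with at least 3 bright members, the bright median lay within 0.1 of the neighbour's difference in 43 and within 0.2 in 58. The signs matched in 56, with 42 lower and 14 higher in SP. Most neighbours were lower in SP (49 of 66), and the match that a shared lean alone would give was not computed. The Pearson r was 0.702 and Spearman's rho 0.779, and r was 0.686 without the 2 runs whose neighbour lay farthest from the median. Over the 49 runs whose neighbour had a single symbol, r was 0.834.

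Neighbour and members were not separate measurements in every run. In 5 of the 64 runs the neighbour below had exactly the values of a member of the run on both arrays, to every digit deposited. These neighbours, picked out after their values were seen, were SRSF9, the ribosomal protein genes RPS24 and RPS25, and 2 probe sets with several genes. Without these 5 runs r was 0.651 and rho 0.747 over 59 runs, with 43 within 0.1 and 55 within 0.2. The r of 0.834 over single-symbol neighbours includes SRSF9, RPS24 and RPS25, and none without them is given. Unequal values do not show that probes are not shared in part, so the likeness is a description and no independent support for the bright members' values.

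Dim members, and the annotated probe set above the run, gave lower correlations. The dim medians of 59 runs had an r of 0.373 with the difference of the neighbour below, and 31 lay within 0.2 of it. For the neighbour above, within 20 IDs of the last member, r was 0.0748 over 46 runs for bright medians and 0.0372 over 47 runs for dim medians. Bright medians lay within 0.2 of that neighbour in 30 of 46 runs, with matching signs in 27. All these correlations are across runs read on the same 2 arrays. No neighbour above a run had the values of a member. Only 14 of the 52 neighbours above were bright, and their median level was 8.11, lower than that of the neighbours below. Side in ID order and level therefore cannot be told apart in this comparison. A neighbour in ID order is not a statement of which gene a run belongs to, although 99.2% of 14403 pairs of named probe sets adjacent by ID lay on 1 chromosome in RefSeq (GRCh38.p14).

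**Figure D5:**
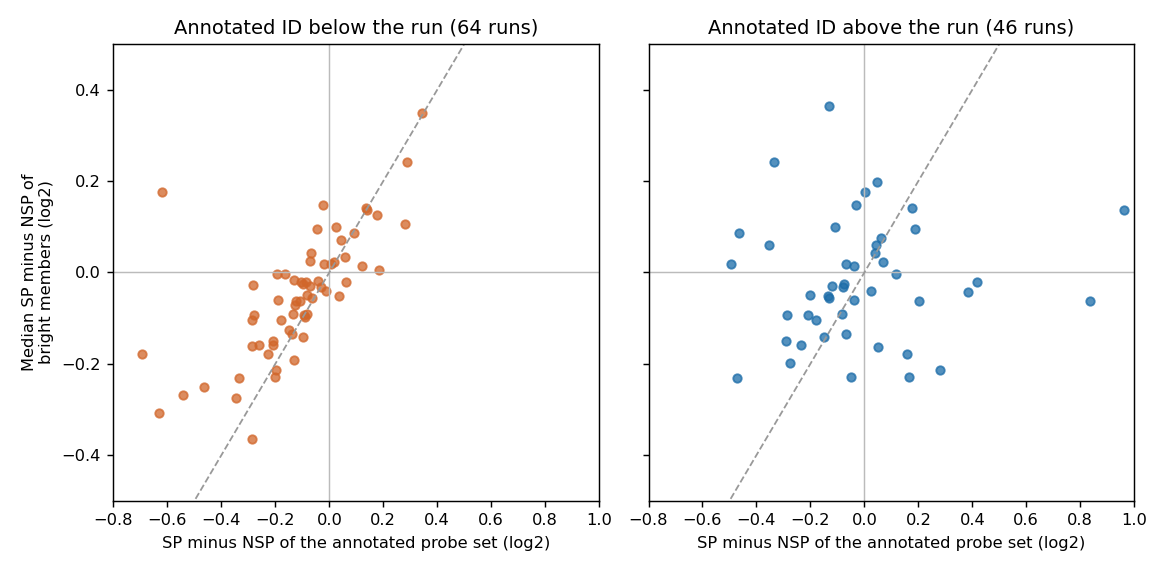
Median difference of bright members (log2, vertical axis) against the difference of the annotated probe set within 20 IDs below the run (left, 64 runs) and above it (right, 46 runs), with a dashed line where both are equal. The points on the left follow the line, with 43 of 64 within 0.1, and 21 of 46 on the right lie within 0.1 of it. Neighbours below were mostly bright and those above mostly dim.

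Members next to each other had like differences, also when the runs with the most 2-fold differences were left out. Across the 3908 adjacent pairs in runs the differences had a Pearson r of 0.420. Without the run of 151 members r was 0.349, without the 2 runs with the most 2-fold differences it was 0.324, and without the 10 runs with the most it was 0.301. After the median of each run was taken off, r was 0.261, so part of the likeness was more local than the run. Adjacent members need not be separate measurements, since whether they share probe sequence was not tested. Much of the longest run went in pairs of like level. The r was higher in pairs of bright members (0.590, 745 pairs) and in pairs of dim members (0.443, 2173 pairs) than in pairs of one each (0.269, 990 pairs). The means of the runs took up 37.0% of the variance of the difference among bright members and 27.5% among dim members. Without the run of 151 members those shares were 33.7% and 18.5%. Means of runs take up some variance even where runs do not differ, and more so with fewer members. That part was not computed.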

How the data were processed

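SP and NSP cells of J82 were measured on 1 exon array each. The values are log2 signals that the authors deposited as a processed table; it was made with RMA and Partek, per the submitters' processing notes. RMA in general subtracts background, brings the arrays to like distributions and summarises the probes of a set. No source used here states software versions, the probe set definition, filters or a genome build. That the values are log2 rests on RMA's usual output and on their range.

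The platform annotation gave 1 symbol for 14432 probe sets, several for 2408 and none for 5171; names come from single-symbol probe sets, 14404 of them updated through Entrez identifiers in RefSeq (GRCh38.p14). Runs, the bright threshold (9), the 2-fold threshold and neighbours were computed as described above. With 1 array per population no test was run, and the number of arrays limits the precision. The runs described singly were the 5 longest (6 with a tie), the 5 with the highest and the 5 with the lowest median difference, and the 5 with the widest gap between bright and dim medians (at least 3 of each); ABCG2, ABCB1 and ABCC1 were named in any case, as were single markers (KRT8, EPCAM, CDH1, PTPRC), which were picked after their values were seen. The sections along runs were also added after the values were seen. The members and lists were chosen with earlier results of these data known. The scripts were tested on simulated data. They ran under Python 3.11.15 with numpy 2.4.6 and pandas 2.3.3 for the tables, statsmodels 0.14.6 for lowess, scipy 1.17.1 for correlations, and matplotlib 3.10.9 for plots.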

Additional observations from a re-analysis of the deposited data

How the results depend on the processing

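Over 19 alternatives, 79 of 97 recomputed values moved little. A count was said to move little when it stayed within 1.5-fold of the main one, and counts of runs were compared without their totals. For a median this meant the same sign and a place within a 95% interval that covers only the spread between members. Members at least 2-fold higher numbered 71 without the run, or without the 2 runs, with the most 2-fold members, 52 with the floor and 381 at 1.5-fold; those lower numbered 63, 505 at 1.5-fold and, among members with a mean of 5 or more (chosen after seeing the data), 145. Bright members past 2-fold numbered 4 without either, 40 with bright from 8 and 1 from 10. No share of all probe sets was set beside the counts at 1.5-fold, with other bright thresholds or from a mean of 5. Those counts therefore do not show whether the excess in the runs holds at these settings. The bright median turned to 0.015 in runs of 20 or more, 0.0053 after centring, 0.018 after quantile normalisation, 0.039 without the lowess trend and 0.0087 as a mean, and was -0.040 over run medians. The dim median was -0.094 without the run with the most. The share of runs with the bright above the dim median ranged from 48.8% (42 of 86, at least 1 of each) to 65.4% (34 of 52, runs of 20 or more), against 52.0%. Replicates would be needed to set an error on any of these values. No paired analysis was possible because each population has 1 array.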

Other observations

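The 1175 probe sets without a symbol outside the runs differed far less than the members. Their median level was 6.98 on both arrays, 15 of them (1.28%) passed 2-fold (8 higher and 7 lower in SP), and the SD of their difference was 0.303, against 0.570 for members. Of the 220 bright ones 146 (66.4%) were lower in SP, as were 64.6% of the 2831 bright probe sets with 1 symbol, whereas 50.7% of bright members were.

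ID steps, which no measured value sets, also went with the difference. None of the 614 bright members with a step of 1 on a side passed 2-fold, and 8 of the 522 bright members with steps of 2 alone did. Among all bright probe sets 0.931% did, and 4 of the 8 lay in the run of 151 members. Between levels of 7 and 9, 2.31% of 173 members with a step of 1 passed 2-fold, against 10.9% of 771 with steps of 2 alone. Between 5 and 7 the shares were closer, at 14.9% of 47 and 16.1% of 794. In the run of 151 members alone, 21 members between 7 and 9 passed 2-fold. Steps were not separated from the run or from the place in it.

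In the 39 runs with at least 5 dim members in the first and in the last section, the last section had the lower median in 16 and the higher in 23. The ends were apart by 0.5 or more in 7 of them.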
